A study of Mus musculus with 6 samples.

Results

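The genes described here are 76 protein-coding genes with a higher mean in Senp8+/- than in wild-type mouse macrophages, out of 714 genes in the table used. They were chosen by their measured values. Of the listed genes, 145 had a higher mean in Senp8+/- and 569 a lower one, and 107 of the higher ones were protein-coding. From these, 8 on chromosome 14, 11 on sequences other than chromosomes 1 to 19 and 13 genes that belong to other named groups were left out, with 1 gene falling under 2 of these classes. By the same biotype, chromosomes and names, 477 listed genes were lower. Because the difference between genotypes chose the members, their folds and p-values are given as a description and support nothing further.

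The cells were macrophages grown from C57BL/6 mouse bone marrow for 6 days with GM-CSF at 10 ng/ml, a growth factor for myeloid cells. Wild-type cells gave 3 libraries, and cells with 1 altered copy of Senp8 gave 3. Both genotypes received beads carrying CD47, a cell-surface signal against engulfment that acts through SIRPα. RNA was collected 24 h afterwards, and no library describes cells without CD47. The labels do not state whether each library had its own animal or culture. A p-value here is therefore set by the spread of these 6 libraries, which could be technical.

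SENP8 is a protease that matures the ubiquitin-like protein NEDD8 and removes it from proteins. NEDD8 is best known for activating cullin-RING ubiquitin ligases, which mark many regulatory proteins for degradation. Macrophages grown with GM-CSF are adherent phagocytes that carry much lipid and display many lectins, adhesion molecules and co-stimulatory ligands.

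The table holds only genes that the authors selected for an unadjusted p under 0.05 and at least a 2-fold difference, so genes outside it were not analysed here. Senp8 is among those, as are all 33 genes of a neddylation list, so the genotype could not be checked on its target. The values are normalised counts, reads scaled by a size factor for each library, and these factors lay between 0.933 and 1.14. Reads over the listed genes were 213650, 217286 and 205957 in Senp8+/- and 491156, 468884 and 439026 in wild type. These sums cover only the selected genes, 569 of which were lower in Senp8+/-, and are no measure of depth. The total depth is unknown. Of 12 macrophage markers 2 are in the table, C1qa and C1qc, both with a lower mean in Senp8+/- and neither past the adjusted threshold. The other cell-type markers in the table were mostly lower in Senp8+/-. The summed level of 8 listed T and NK cell markers of 15 was 17.7 to 40.7 normalised counts in Senp8+/-, against 162 to 270.3 in wild type, with Gzma and Ncr1 at 0 in Senp8+/-. For stromal and endothelial cells 9 of 14 markers were listed and summed to 397 to 722 against 723 to 1805. Of 14 neutrophil markers, 3 were listed and summed to 358 to 561 against 1187 to 1566, with Retnlg at 0 in Senp8+/-. Dendritic cell markers (2 of 10 listed) summed to 177 to 276 against 545 to 786, and the 1 listed B cell marker of 9, Cd79b, stood at 10.7 to 12.4 against 25.3 to 46.5. The part of these other cells in the members' values was not tested.

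Promoter sequences from RefSeq (GRCm38.p6) are shown for Pdpn, the most abundant member, for Idi1 of the lipid group, and for Id3 and Tmeff1 of the BMP, activin and TGF-beta group. Each runs from 250 bases before to 50 bases after the annotated start, 5′ to 3′ on the gene's own strand. This RefSeq start is the deposited gene start for Pdpn and Tmeff1. It lies 105 bases inside the deposited gene for Idi1 and 325 for Id3, so the whole Id3 window is inside that gene. Capitals mark the motifs listed below, read on either strand. The windows are chr4:143299515-143299814 (minus strand) for Pdpn, chr13:8885356-8885655 (plus) for Idi1, chr4:136143572-136143871 (plus) for Id3 and chr4:48584924-48585223 (plus) for Tmeff1.
Pdpn: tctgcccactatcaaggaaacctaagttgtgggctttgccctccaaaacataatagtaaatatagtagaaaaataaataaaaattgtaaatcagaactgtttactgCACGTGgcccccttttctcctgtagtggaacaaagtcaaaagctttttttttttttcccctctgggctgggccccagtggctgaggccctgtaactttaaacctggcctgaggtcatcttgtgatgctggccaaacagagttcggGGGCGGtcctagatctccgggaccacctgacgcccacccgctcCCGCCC
Idi1: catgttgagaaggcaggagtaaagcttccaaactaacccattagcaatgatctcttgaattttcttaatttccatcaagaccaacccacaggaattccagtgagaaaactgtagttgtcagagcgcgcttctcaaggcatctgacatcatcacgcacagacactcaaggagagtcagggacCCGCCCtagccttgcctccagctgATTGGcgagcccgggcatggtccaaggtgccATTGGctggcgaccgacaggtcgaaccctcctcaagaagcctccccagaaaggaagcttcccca
Id3: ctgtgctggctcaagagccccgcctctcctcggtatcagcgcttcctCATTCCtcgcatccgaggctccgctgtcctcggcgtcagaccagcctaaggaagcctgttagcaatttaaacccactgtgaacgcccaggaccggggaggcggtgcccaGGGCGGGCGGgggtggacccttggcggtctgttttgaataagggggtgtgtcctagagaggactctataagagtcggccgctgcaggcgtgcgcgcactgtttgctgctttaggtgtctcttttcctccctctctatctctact
Tmeff1: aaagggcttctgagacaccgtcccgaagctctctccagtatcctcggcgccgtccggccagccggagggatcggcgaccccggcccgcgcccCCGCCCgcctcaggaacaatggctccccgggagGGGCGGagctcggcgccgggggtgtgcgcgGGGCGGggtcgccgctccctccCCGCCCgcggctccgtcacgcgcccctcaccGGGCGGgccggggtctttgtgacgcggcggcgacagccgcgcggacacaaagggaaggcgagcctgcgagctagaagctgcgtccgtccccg
The Pdpn window holds an E-box (CACGTG) at -144 and GC boxes (GGGCGG) at 1 and 44, counted from the start as 0. Idi1 has a GC box at -69 and CCAAT boxes (CCAAT) at -45 and -14. In Id3 a TEAD site (CATTCC) lies at -203 and overlapping GC boxes at -94 and -90, while Tmeff1 has 5 GC boxes between -158 and -42. These matches are descriptions of letters, not of binding.

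Windows were found by symbol for 53 members, 63 windows in all, since 10 members have 2. The 23 members without a window include Id1 and Car2. They are compared here with 21262 windows of the same length at protein-coding genes. The GC box was in 61.9% of the members' windows and 46.2% of all coding windows, and the CCAAT box in 33.3% and 38.2%. The AP-1 site (TGANTCA), which Fos and Jun proteins bind, was in 12.7% and 6.99%, or 8 of the members' windows. The TEAD site was in 17.5% and 13.6%, the E-box in 9.52% and 7.84% and the TATA box (TATAAA) in 12.7% and 12.6%. A sterol response element (TCACNCCAC) was in 0 of the members' windows and 1.19% of the coding windows. The median GC content was 58% in the members' windows and 56.3% in all coding windows. The coding windows were not limited to genes expressed in these cells, so nothing particular to the members is read from these shares.

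A member is said to have risen where its adjusted p, as given by the authors' deposited table, is under 0.05. By this measure 22 of the 76 members rose in the authors' deposited table, a share of 28.9%. The 76 include 3 members, Akr1c18, Gpat2 and Tmem121b, whose adjusted p there may stand for a missing value. The background is 36.6% of all 145 listed higher genes, and 0.361% of the 14694 genes in the authors' correction were called higher. Since the rule used this contrast, nothing is read from these shares. In 67 members (88.2%) every Senp8+/- library lay above every wild-type library, against 92.4% of the listed higher genes, and all 22 members that rose were among them. The counts by group below stand beside these shares of all listed higher genes, and nothing is read from them either. The 9 members whose genotypes overlapped were Id3, Scd1, 1700047I17Rik2, Cdc25c, Ptpn3, Bdh2, Abca8b, Sgsm1 and Slc9a5. With limma on log2(value + 1), 7 members passed an adjusted p of 0.05, against 18.6% of the listed higher genes. They were Tmeff1, Apcdd1, Nt5e, Rgs13, Add2, Akr1c18 and Gpat2, and 5 of these also rose in the authors' deposited table. Without Senp8+/- replicate 2, or without wild-type replicate 1, the limma count was 0, and DESeq2 on the recovered reads passed 15.

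The members' means over the 6 libraries ran from 1.57 to 7559 normalised counts, with a median of 24.9, and 4 members stood above 1000. The median was 116 for the members that rose and 19.1 for the others. The median log2 fold change in the authors' deposited table was 1.36 over the members and 1.45 over all listed higher genes, while over all 714 listed genes it was -1.48. Summed over the members, the Senp8+/- libraries held 31169, 30905 and 28547 normalised counts, and the wild-type libraries 13727, 13726 and 14713. Most of these sums came from Pdpn and Chst11, with means of 10142 and 8875 in Senp8+/- and 4976 and 4401 in wild type. Library values are given in the order of replicates 1, 2 and 3 throughout, and the replicates have no other order.

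**Figure D1:**
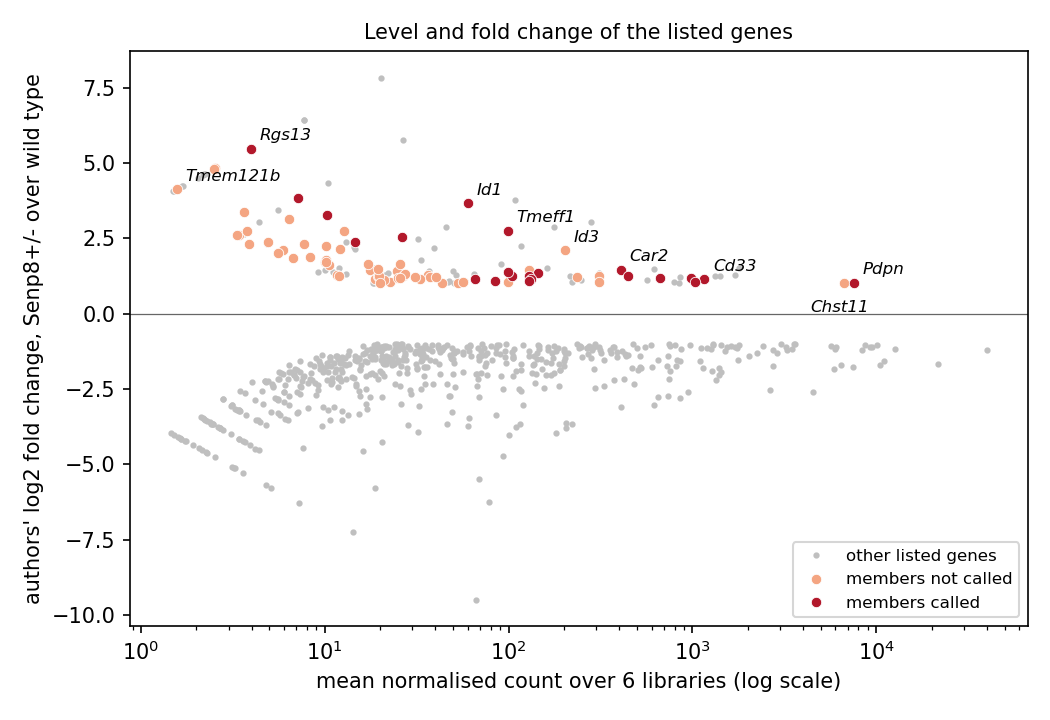
Level and fold change of the 714 listed genes. The x axis is the mean normalised count over 6 libraries on a log scale, and the y axis is the log2 fold change, Senp8+/- over wild type, of the authors' deposited table; dark red points are members that rose, light points other members and grey points other listed genes. Members reach from Tmem121b at 1.57 normalised counts to Pdpn at 7559, and the empty band around 0 comes from the authors' selection.

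Genes of BMP, activin and TGF-beta signalling made up 6 of the members, and 2 of them rose, Id1 and Tmeff1. BMPs, activins and TGF-beta bind paired receptor kinases that phosphorylate SMAD proteins, and the Id genes are classic early targets of BMP signalling. Their products lack a DNA-binding domain and hold other helix-loop-helix factors inactive.

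Id1 stood at 17.5, 131 and 186 normalised counts in the Senp8+/- libraries compared with 9.90, 10.6 and 6.12 in wild type. Senp8+/- replicate 1 was far below the other two but still above each wild-type library. The means were 112 ± 86.1 (SD, n = 3) and 8.86 ± 2.40 (SD, n = 3), a 12.6-fold difference that was 8.39-fold without Senp8+/- replicate 3, with an adjusted p of 1.07e-04 in the authors' deposited table. Its paralogue Id3 had the same low library, at 60.7, 420.5 and 508 against 118, 75.0 and 36.7. Replicate 1 of Senp8+/- lay below wild-type replicates 1 and 2, so the genotypes overlapped, with an adjusted p of 0.0595 in the authors' deposited table. Among the named members these were also the most variable genes within Senp8+/-, with an SD on the log2 scale of 1.80 for Id1 and 1.68 for Id3, against a median of 0.41 over the members.

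Tmeff1, a transmembrane protein with follistatin-like domains that inhibits Nodal signalling, stood at 81.3, 213 and 227 in Senp8+/- and 38.6, 22.2 and 16.6 in wild type. Senp8+/- replicate 1 was again the lowest of its group, and the genotypes did not overlap. It rose 6.74-fold, from 25.8 ± 11.5 to 174 ± 80.4 (SD, n = 3 each), with an adjusted p of 6.39e-06 in the authors' deposited table, the smallest of any member there.

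The ligand side was less uniform. Inhba, which encodes the subunit of activin A, stood at 659.8, 394 and 266 in Senp8+/- and at 175, 132 and 246 in wild type. Here Senp8+/- replicate 1 was the highest library, the reverse of Id1, and replicate 3 lay close to the highest wild-type library. The adjusted p of Inhba in the authors' deposited table was 0.0665. Fst encodes follistatin, which binds and neutralises activin, and had 20 reads in Senp8+/- against 3 in wild type, a ratio of 6.94 with a 95% counting interval of 2.06 to 36.5. The ratio of means, 6.45, became 12.4 without wild-type replicate 1, and leaving out wild-type replicate 3 gave 4.30. Pmepa1, a TGF-beta target that restrains SMAD signalling, was 34.9 ± 4.91 against 15.2 ± 9.07 (SD, n = 3 each), with an adjusted p of 0.402 in the authors' deposited table.

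Of a list of 32 BMP, TGF-beta and Id genes, 8 were in the table, 4 with a higher mean and 4 with a lower one. Of these, 2 rose and 4 fell in the authors' deposited table, and the median log2 fold change of the 8 was -0.14, beside -1.48 over all listed genes. Those that fell were 2 receptors of the BMP branch and 2 ligand-side genes. Acvrl1, a type I receptor for BMPs, fell from 1218 ± 81.0 to 423 ± 64.7 normalised counts (SD, n = 3 each; adjusted p 6.58e-10 in the authors' deposited table). Its co-receptor endoglin, Eng, fell from 966 ± 383 to 331 ± 75.8 (SD, n = 3 each; adjusted p 0.00156 in the authors' deposited table). Tgfb2, a ligand, and Ltbp1, which tethers latent TGF-beta to matrix, fell from 31.5 ± 7.90 to 8.44 ± 1.11 and from 33.8 ± 13.6 to 8.04 ± 3.03 (SD, n = 3 each). The Id1 and Tmeff1 values thus stand beside lower levels of these receptors and ligand-side genes in the same libraries.

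**Figure D2:**
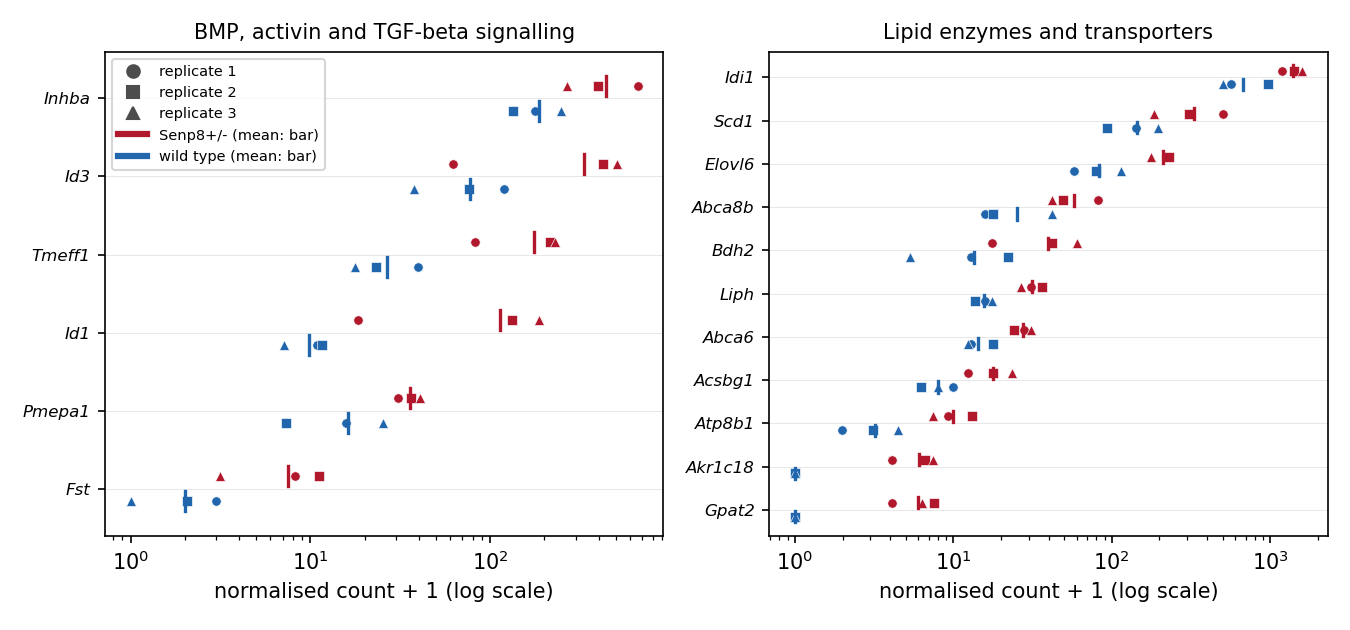
Normalised count + 1 per library (x axis, log scale) for members of BMP, activin and TGF-beta signalling and for the lipid enzymes and transporters reported here; red points are the 3 Senp8+/- and blue points the 3 wild-type libraries, with the shape giving the replicate and a bar the mean. Id1 and Id3 each show 1 Senp8+/- library well below the other two, at 17.5 and 60.7, while Idi1 and Elovl6 show Senp8+/- libraries close to each other and above all wild-type libraries.

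Enzymes and transporters of lipids made up 12 members, and 3 of them rose, Idi1 and Elovl6 among them. Isoprenoid units are made in the mevalonate pathway, and fatty acids are lengthened and desaturated by enzymes of the endoplasmic reticulum. Both sets of genes are known targets of SREBP transcription factors.

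Idi1, the isomerase that supplies activated isoprenoid units, stood at 1188, 1417 and 1588 in Senp8+/- and 566, 959.6 and 503 in wild type. Wild-type replicate 2 came nearest to the Senp8+/- range without reaching it. It rose 2.07-fold, from 676 ± 247 to 1397 ± 201 (SD, n = 3 each; adjusted p 0.0357 in the authors' deposited table).

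Elovl6, the elongase of saturated long-chain fatty acids, stood at 219, 228 and 177 in Senp8+/- and 56.5, 78.1 and 113 in wild type. It rose 2.52-fold without overlap, from 82.4 ± 28.4 to 208 ± 27.4 (SD, n = 3 each; adjusted p 0.0048 in the authors' deposited table). Scd1, the desaturase that acts on such fatty acids, stood at 501, 308 and 183 against 141, 91.8 and 195. Senp8+/- replicate 3 lay below wild-type replicate 3, so the genotypes overlapped, and the adjusted p of Scd1 in the authors' deposited table was 0.138. Of 29 genes on a list of fatty acid and lipid metabolism, 3 were in the table. The third, Pltp, which moves phospholipids between lipoproteins, fell from 4811 ± 651 to 2141 ± 363 (SD, n = 3 each; adjusted p 8.24e-05 in the authors' deposited table). The list's median log2 fold change was 1.21 in the authors' deposited table.

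The other lipid members were low and did not pass the threshold. The lipid transporters Abca6 and Abca8b were 1.99-fold and 2.33-fold higher, and Abca8b was 3.56-fold higher without wild-type replicate 3. Atp8b1, a phospholipid flippase, was 8.92 ± 2.89 against 2.20 ± 1.25 (SD, n = 3 each). Bdh2, a short-chain dehydrogenase, overlapped between genotypes at 16.5, 40.9 and 58.9 against 11.9, 21.1 and 4.37. Liph, a phospholipase, and Acsbg1, an acyl-CoA synthetase, were 2.06-fold and 2.39-fold higher. Akr1c18, a steroid reductase, and Gpat2, an acyltransferase, each had 15 reads in Senp8+/- and 0 in wild type, at least 1.72-fold and 1.71-fold higher against a floor of 3 reads per wild-type library. Both were past the limma threshold while their adjusted p is written as 1 in the authors' deposited table. That entry may stand for a missing value, since Spint1 has a larger unadjusted p there but an adjusted p of 0.133.

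Surface receptors and ligands made up 12 members, all without overlap between genotypes, beside 92.4% of all listed higher genes. Of these members 6 rose, beside 36.6% of the listed higher genes: Pdpn, Cd33, Tnfrsf22, Olr1, Nt5e and Adgrg3. Pdpn, or podoplanin, is a mucin-like glycoprotein that binds the platelet receptor CLEC-2 and ezrin-family linkers of the cytoskeleton, and is a known marker of some inflammatory macrophages. It stood at 9514, 10100.2 and 10812 normalised counts in Senp8+/- and 5221, 6004 and 3703 in wild type. Every Senp8+/- library was well above the highest wild-type one. Pdpn rose 2.04-fold, from 4976 ± 1170.0 to 10142 ± 649.7 (SD, n = 3 each; adjusted p 0.00327 in the authors' deposited table). Per kilobase of the deposited gene length it had 5582 normalised counts in Senp8+/- against 2738 in wild type, the highest level of any member on that scale. Of a list of 45 genes of adhesion, migration and cytoskeleton linkage, 4 were in the table, and in the authors' deposited table Pdpn rose while Itgb7, Tpm2 and Vcam1 fell, with a median log2 fold change of -1.42.

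Cd33, a sialic-acid-binding receptor of myeloid cells, stood at 1669.6, 1643 and 1488 in Senp8+/- and 631, 679 and 868 in wild type. It rose 2.20-fold (adjusted p 3.66e-05 in the authors' deposited table), and the lowest Senp8+/- library was far above the highest wild-type library. Olr1, the scavenger receptor LOX-1 for oxidised lipoproteins, was almost level across Senp8+/- at 175, 172 and 175, against 64.4, 80.2 and 104 in wild type. Its SD in Senp8+/- was 1.57 around a mean of 174, and it rose 2.10-fold (adjusted p 0.0113 in the authors' deposited table). Tnfrsf22, a mouse decoy receptor for TRAIL, stood at 177, 192 and 180.0 against 73.3, 64.4 and 109 and rose 2.22-fold (adjusted p 0.00863 in the authors' deposited table). The Senp8+/- values of both receptors lay closer together than the wild-type ones. They were also closer than counting error alone would usually leave them, so nothing is read from this closeness.

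Nt5e, also called CD73, makes adenosine from AMP at the cell surface and was much scarcer, at 19.6, 23.3 and 31.1 against 5.94, 2.11 and 6.12. It rose 5.21-fold from 4.72 ± 2.26 to 24.6 ± 5.88 (SD, n = 3 each; adjusted p 0.0144 in the authors' deposited table), the largest fold of the surface members that rose. Adgrg3, an adhesion G protein-coupled receptor known from granulocytes, stood at 87.5, 106 and 77.1 against 29.7, 45.4 and 47.2 and rose 2.21-fold (adjusted p 0.0366 in the authors' deposited table).

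The 6 surface members that did not pass include ligands of lymphocyte receptors. H60b and Raet1e encode ligands of NKG2D, an activating receptor of NK and T cells. H60b stood at 26.8, 33.5 and 56.8 against 15.8, 17.9 and 13.1, and Raet1e at 45.3, 50.2 and 61.1 against 25.7, 30.6 and 11.4. Neither overlapped between genotypes, but their exons share 133 bases on 1 strand and Raet1e shares 363 with Raet1d, so their reads could be split between them. The Raet1e transcript is also 96.0% identical to Raet1d over 91.0% of its length. Klrk1, the gene of NKG2D itself, fell from 44.5 ± 11.1 to 11.4 ± 7.51 (SD, n = 3 each; adjusted p 0.0427 in the authors' deposited table). Tnfsf9, which co-stimulates T cells, was 70.9 ± 12.8 against 35.4 ± 11.5 (SD, n = 3 each). The protease-activated receptors F2rl2 and F2rl3 were 4.95-fold and 4.93-fold higher from 8 and 4 wild-type reads. Ly6g5b, a small surface protein gene, had 18 reads against 3, a ratio of 6.25 with a 95% counting interval of 1.82 to 33.1.

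Members linked to Wnt and Hippo signalling, caveolae and matrix numbered 8. None overlapped and 2 rose, beside 92.4% without overlap and 36.6% past the threshold among all listed higher genes. Apcdd1, a membrane inhibitor of Wnt signalling, stood at 65.9, 42.8 and 25.7 in Senp8+/- and 6.93, 5.28 and 10.5 in wild type. The Senp8+/- libraries differed widely among themselves but all lay above wild type. It rose 5.92-fold (adjusted p 0.00107 in the authors' deposited table). Cav1, or caveolin, which coats the flask-shaped membrane pits called caveolae, stood at 471, 758 and 658 against 271, 348 and 174. It rose 2.38-fold, from 265 ± 87.5 to 629 ± 146 (SD, n = 3 each; adjusted p 0.0127 in the authors' deposited table). Wwtr1 encodes TAZ, a co-activator of the Hippo pathway, and stood at 41.2, 22.3 and 19.3 against 13.9, 7.39 and 13.1. Ctgf, a textbook TAZ and YAP target, had 17 reads against 3, a ratio of 5.90 with a 95% counting interval of 1.71 to 31.4. Its ratio of means, 6.16, became 10.9 without wild-type replicate 3, and leaving out wild-type replicate 1 gave 4.11. Neither Wwtr1 nor Ctgf passed the threshold in the authors' deposited table, with adjusted p of 0.36 and 0.518.

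The matrix genes of this group were scarce in both genotypes. Tnc, which encodes tenascin-C, was 13.1 ± 2.03 against 3.56 ± 0.629, and Olfml3, a secreted olfactomedin-family protein, 25.9 ± 2.71 against 11.7 ± 3.69 (SD, n = 3 each). Col5a3, a collagen chain, was 3.32-fold higher and 5.05-fold higher without wild-type replicate 3. Mmp10, a matrix metalloproteinase, had 20 reads against 2, a ratio of 10.4 with a 95% counting interval of 2.53 to 91.8, and its ratio of means, 10.3, was 6.84 without wild-type replicate 1. Their adjusted p in the authors' deposited table ran from 0.22 for Tnc to 0.345 for Olfml3.

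Secreted factors and mast cell products gave 6 members without overlap, of which Tpsab1 rose. Among all listed higher genes 92.4% did not overlap and 36.6% passed the threshold. Tpsab1, a tryptase of mast cell granules, stood at 6.18, 26.0 and 23.6 in Senp8+/- and 3.96, 1.06 and 0.874 in wild type. Senp8+/- replicate 1 was nearer to wild-type replicate 1 than to its own group. The difference was 9.47-fold (adjusted p 0.0331 in the authors' deposited table) and 19.3-fold without wild-type replicate 1. Tpsab1 was the 1 gene in the table from 15 mast cell and basophil markers, so the summed level of the listed ones is its own. The levels of the other markers are not known here. In such bulk RNA, more cells of a type and more RNA per cell cannot be told apart. Tph1, the first enzyme of serotonin synthesis, also known from mast cells, stood at 8.23, 19.5 and 6.43 against 1.98, 1.06 and 0.874. It was 8.75-fold higher, or 5.62-fold without Senp8+/- replicate 2, and did not pass (adjusted p 0.0978 in the authors' deposited table).

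Of 45 cytokines and growth factors 4 were in the table, with Il33 and Il10 higher and Cxcl5 and Pdgfc lower. Il33, an alarmin of the interleukin 1 family, stood at 24.7, 26.0 and 26.8 against 5.94, 15.8 and 3.49. The Senp8+/- libraries were almost level, closer than counting error usually leaves such low counts. The 3.07-fold difference became 5.48-fold without wild-type replicate 2. Il10, which dampens inflammation, stood at 10.3, 4.65 and 13.9 against 2.97, 1.06 and 2.62, from 28 and 7 reads. Neither passed, with adjusted p of 0.204 and 0.39 in the authors' deposited table. Spint1, an inhibitor of serine proteases, and Cgref1, a secreted calcium-binding protein, were 2.72-fold and 2.06-fold higher and did not pass either.

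Car2 rose among 5 members that encode a carbonic anhydrase, transporters and channels. Carbonic anhydrase hydrates carbon dioxide to give protons and bicarbonate, and Car2 is the form with which osteoclasts, relatives of macrophages, supply acid for bone resorption. It stood at 531, 605 and 652 in Senp8+/- and 226, 306 and 121 in wild type, far apart. Car2 rose 2.74-fold, from 218 ± 93.1 to 596 ± 61.1 (SD, n = 3 each; adjusted p 0.00405 in the authors' deposited table). It was the 1 gene in the table from a list of 16 osteoclast genes. Of 26 genes for carbonic anhydrases and pH or ion transport, 4 were listed, and in the authors' deposited table Car2 rose, Car6 and Trpm2 fell and Kcna3 did not pass, with a median log2 fold change of -0.31. Erythroid markers hold Car2 too, and of 16 only Klf1 was listed beside it, with a lower mean in Senp8+/-.

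The transporters were lower in level. Slc9b2, a sodium-proton exchanger also known from osteoclasts, stood at 12.4, 26.0 and 11.8 against 2.97, 4.22 and 3.49, with an adjusted p of 0.0924 in the authors' deposited table. Its neighbour Bdh2 lies 3.27 kb away with no other coding gene between. Slc15a2, a peptide transporter, was 36.0 ± 8.91 against 13.6 ± 4.96 (SD, n = 3 each). The exchanger Slc9a5 overlapped between genotypes at 19.6, 18.6 and 8.57 against 0.99, 4.22 and 8.74, and its 3.35-fold difference was 5.98-fold without wild-type replicate 3. Kcna3, a voltage-gated potassium channel, was 2.80-fold higher and 7.12-fold higher without wild-type replicate 3, in which it stood at 22.7 against 5.94 and 2.11 in the other two.

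Padi2, a peptidylarginine deiminase that turns arginine into citrulline in histones and other proteins, stood at 1079, 921 and 789.5 in Senp8+/- and 399, 405 and 419 in wild type. Wild-type libraries were nearly level. Padi2 rose 2.28-fold, from 408 ± 10.4 to 929.8 ± 145 (SD, n = 3 each; adjusted p 8.72e-06 in the authors' deposited table). It was grouped with 3 members that did not pass. Pgm2l1, which makes a glucose bisphosphate, was 421 ± 88.6 against 203 ± 93.3 (SD, n = 3 each). Cdc25c, the phosphatase that triggers mitosis, overlapped at 24.7, 26.0 and 8.57 against 9.90, 1.06 and 2.62, and was 4.37-fold higher or 10.8-fold without wild-type replicate 1. Rad54b, a homologous recombination factor, shares 2068 of its 5782 exon bases with Fsbp and was 2.43-fold higher. Of 35 cell cycle genes on a list 2 were in the table, Cdc25c and Cdkn1a. The latter, an inhibitor of the cycle, fell from 2193 ± 292 to 1041 ± 39.0 (SD, n = 3 each; adjusted p 1.73e-05 in the authors' deposited table).

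Regulators of G proteins, phosphatases and the cytoskeleton gave 7 members, and 3 rose. Rgs13, which switches off G protein signals and is known from mast cells and germinal-centre B cells, stood at 9.26, 10.2 and 4.29 against 0 in each wild-type library. With 24 reads against 0 it was at least 2.72-fold higher against the floor of 3 reads per library, and its adjusted p was 0.0227 in the authors' deposited table. Add2, the beta chain of adducin, which links spectrin to actin, had 40 reads against 3. The ratio was 13.9 with a 95% counting interval of 4.42 to 70.1, and the adjusted p was 0.0433 in the authors' deposited table. The ratio of means, 14.7, became 27.1 without wild-type replicate 3 and 9.64 without Senp8+/- replicate 1. Carmil1, which binds actin capping protein, stood at 94.7, 146 and 102 against 50.5, 57.0 and 53.3 and rose 2.13-fold (adjusted p 0.0274 in the authors' deposited table). Rgs13 and Add2 thus rest on few reads, and Carmil1 does not. The others were Pald1, Gnat3, Ptpn3 and Sgsm1, between 2.07-fold and 2.43-fold higher, with Ptpn3 and Sgsm1 overlapping between genotypes.

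Transcription, RNA and ubiquitin gave 8 members without overlap, and 2 rose. The shares over all listed higher genes were 92.4% without overlap and 36.6% past the threshold. Dcp1b, a cofactor of mRNA decapping, stood at 217, 173 and 153 against 65.4, 62.3 and 101 and rose 2.37-fold (adjusted p 0.00767 in the authors' deposited table). Rnf180, a membrane-bound RING ubiquitin ligase, stood at 103, 156 and 179 against 45.6, 67.6 and 73.4 and rose 2.35-fold (adjusted p 0.023 in the authors' deposited table). In both, each Senp8+/- library exceeded each wild-type one. Hectd2, a HECT-type ubiquitin ligase, and Ubtd2, a ubiquitin-domain protein, were 2.18-fold and 2.03-fold higher without passing. The same held for Mafa, a transcription factor of pancreatic beta cells, at 37.5 ± 5.16 against 15.5 ± 3.99, and for Zfp607b, a zinc finger gene, at 43.2 ± 12.5 against 18.5 ± 10.5 (SD, n = 3 each). Rnasek and Samd11 were 3.60-fold and 3.40-fold higher, Samd11 5.84-fold without wild-type replicate 2. Rnasek shares 599 of its 885 exon bases with Gm21988 on 1 strand. Of its 3588 exon bases Samd11 shares 598 with Noc2l and 426 with Gm47252, both on the opposite strand.

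Chst11, a sulfotransferase that modifies chondroitin chains, was the second most abundant member, at 10967, 8929.9 and 6728 in Senp8+/- and 4158, 2944 and 6100.0 in wild type. The genotypes did not overlap, but the lowest Senp8+/- library was close to the highest wild-type one. Its mean was 8875 ± 2120.0 against 4401 ± 1592 (SD, n = 3 each), and its adjusted p was 0.085 in the authors' deposited table. Hs3st3b1 and Hs3st1, which sulfate heparan chains, were 3.0-fold and 5.17-fold higher from 16 and 5 wild-type reads and did not pass.

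Of 5 little described members Snn rose. Snn encodes stannin, a small membrane protein linked to organotin toxicity, and stood at 77.2, 185 and 168 against 64.4, 41.2 and 58.5. Senp8+/- replicate 1 lay nearest to wild type, and the difference was 2.62-fold (adjusted p 0.0341 in the authors' deposited table). Fam177a and 1700047I17Rik2 are copies identical over 3863 bases, and both match Ppp2r3c at 98.3% identity over 2652 bases. How reads were divided among these genes is therefore uncertain. Fam177a stood at 15.4, 17.7 and 33.2 against 0, 8.45 and 1.75, and 1700047I17Rik2 at 190.4, 265 and 116 against 32.7, 136 and 39.3. Wild-type replicate 2 was the highest wild-type library for both, and without it the folds of 6.51 and 2.74 became 25.3 and 5.29. Gm32687 is 99.9% identical to Zfp433 and was 2.34-fold higher. Tmem121b had 9 reads against 0, at least 1.08-fold higher against the floor of 2.92 normalised counts. Without Senp8+/- replicate 3 its mean of 1.49 lies under that floor, so no fold can then be given.

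**Figure D3:**
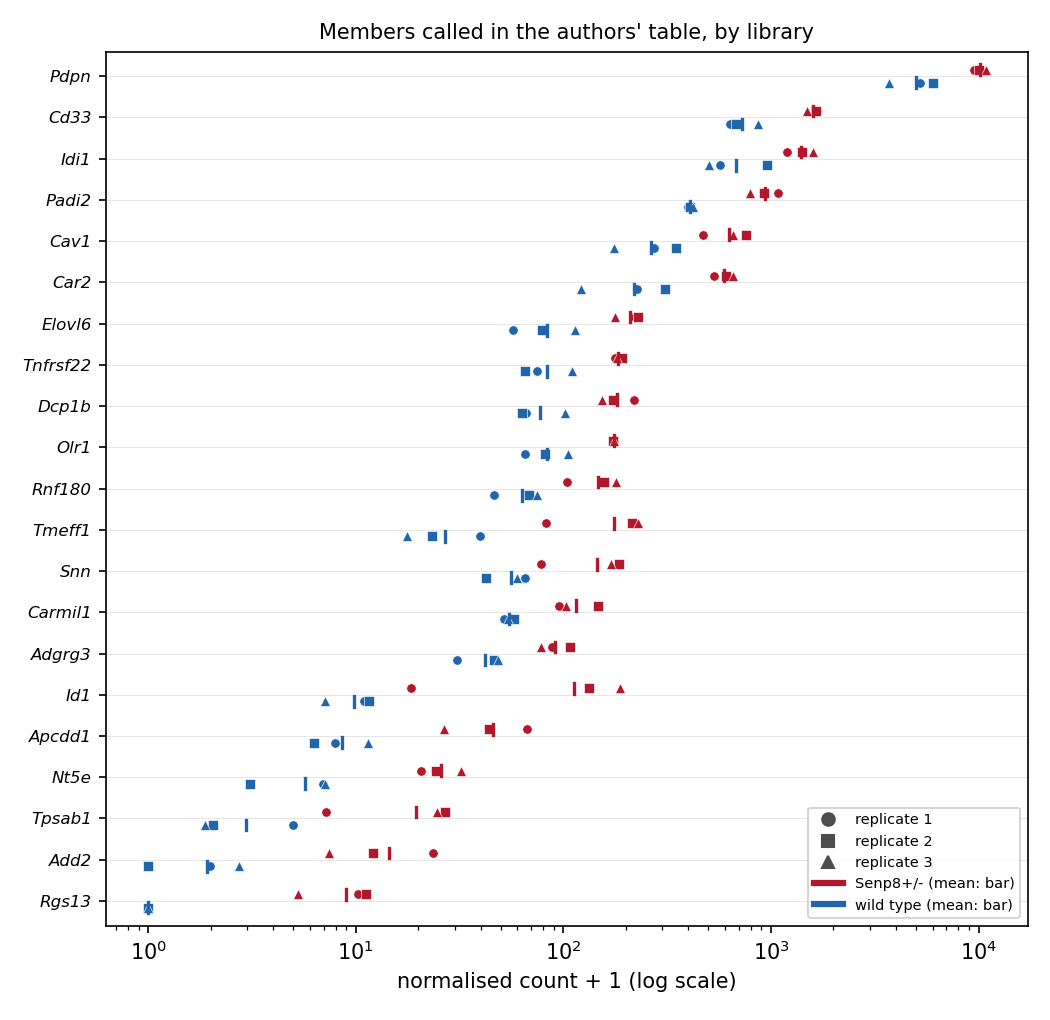
Normalised count + 1 per library (x axis, log scale) for the members reported here that rose in the authors' deposited table; red points are the 3 Senp8+/- and blue points the 3 wild-type libraries, with the shape giving the replicate and a bar the mean. In each of them every Senp8+/- library lies above every wild-type library. Id1, Tmeff1, Tpsab1, Snn, Pdpn, Car2 and Cav1 are among those with Senp8+/- replicate 1 below the other two. In others, such as Padi2 and Apcdd1, it is the highest.

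The members did not share 1 order of the Senp8+/- libraries. Replicate 1 was the lowest Senp8+/- library in 33 members and replicate 3 in 32, while replicate 2 was lowest in 11. Id1, Id3, Tmeff1, Tpsab1 and Snn had replicate 1 lowest, and Inhba, Scd1, Chst11, Apcdd1 and Padi2 had it highest. Replicate 1 was the highest Senp8+/- library in 23.7% of the members and in 44.5% of 546 listed genes that were lower, after 23 with tied values were left out. Its size factor of 0.971 lay between those of the other two, 1.07 and 0.933. The members' spread was similar to that of the table, with a median SD on the log2 scale of 0.41 in Senp8+/- and 0.47 in wild type, against 0.38 and 0.47 over all listed genes.

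By the mean absolute difference of centred log2(value + 1) over the 6 libraries, the members most like Pdpn were Abca6, Idi1, Olfml3, Tnfsf9 and Spint1, at 0.14 to 0.16. All these libraries enter the choice of the members, so likeness in the direction between genotypes was fixed by it. At the edge of the selection lay Abca6, Tnfsf9 and Chst11, with log2 fold changes of 1.0, 1.01 and 1.01 in the authors' deposited table. The nearest genes on the other side were Espn, Cd83 and Ptpn18 at -1.0, -1.0 and -1.01 there.

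Levels between genes were compared per kilobase of the deposited gene length. On that scale Pdpn stood above, in Senp8+/-, Chst11 at 1606 normalised counts, Idi1 at 399, Car2 at 246, Cd33 at 206, Padi2 at 185, Id3 at 184 and Cav1 at 183. In wild type the same genes stood at 796 for Chst11, 193 for Idi1, 89.8 for Car2, 93.4 for Cd33, 81.4 for Padi2, 42.7 for Id3 and 76.8 for Cav1. Id1 reached 96.3 in Senp8+/- from 7.64 in wild type. The order of Padi2, Id3 and Cav1 in Senp8+/- lies well within their spread between libraries.

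The members lay on 18 chromosomes. Chromosome 4 held 9, or 11.8% of the members against 6.67% of annotated protein-coding genes, and 4 of these rose, Tmeff1, Padi2 and Pdpn among them. Chromosome 13 held 7, 9.21% against 4.21%, and they made up 35% of the 20 genes listed there under the same rule. By that rule 76 genes were higher and 477 lower over all these chromosomes. The share was 30% of 10 genes on chromosome 18, 25% of 36 on chromosome 4 and 24% of 25 on chromosome 10. Chromosome 15 held 1 of 26 and chromosome 17 held 3 of 48. These counts are small, and nothing is read from them. Another member lay within 500 kb of 8 of the members, in 4 pairs. These were Slc9b2 with Bdh2, H60b with Raet1e, Abca8b with Abca6 at 181 kb, and Fam177a with 1700047I17Rik2 at 57.5 kb.

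**Figure D4:**
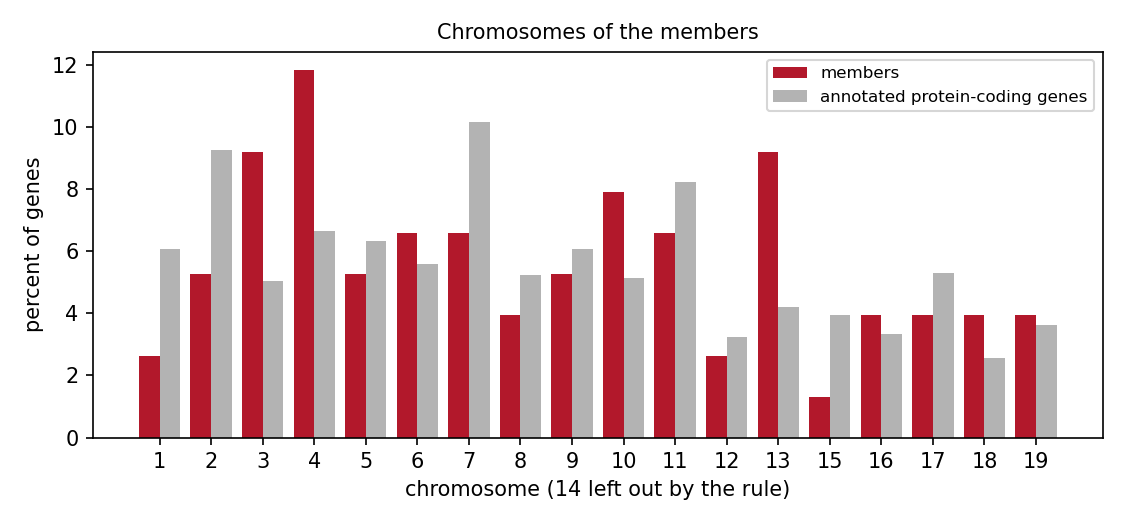
Share of the members (red bars) and of annotated protein-coding genes (grey bars) on each chromosome, in percent, with chromosome 14 left out by the rule. Chromosome 4 holds 11.8% of the members and 6.67% of the annotated genes, and chromosome 13 holds 9.21% and 4.21%.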

How the data were processed

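Poly(A)-selected, random-primed RNA sequencing of 6 libraries was used. HISAT2 2.0.5 and featureCounts 1.5.0-p3 are named in the submitters' processing notes. Not given in the sources used here are the genome build, annotation, counting settings, strandedness and test software. Without strand, reads of a gene and of an overlapping or antisense partner cannot be separated. Beyond the overlaps given above, exon bases shared with an opposite-strand gene include 23.2% for Ctgf, 20.2% for Hectd2, 14.9% for Tnfsf9, 12.7% for Cdc25c and 9.22% for Idi1. The columns titled KO hold cells whose genotype label is SENP8+/-.

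The deposited values are a signal, read counts divided by the authors by 1 size factor per library. Per library, 100% of values came out as whole multiples of a step (tolerance 1e-06 of a read), and whole reads were recovered from them. The authors also deposited a log2 fold change, a p-value and an adjusted p-value per gene, and their correction covered 14694 genes, from the ratio of adjusted to raw p at the first row. Only the 714 selected genes are listed, so folds are on average overstated and no rescaling over all genes was possible. No column came from outside the series (0).

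limma 3.58.1 (R 4.3.3) was applied to log2(value + 1) of all 714 rows (model: genotype), with Benjamini-Hochberg adjustment over 14694 genes at a threshold of 0.05. It was tested on simulated data that held unchanged genes beside changed ones. The listed genes were all selected for a difference, and limma's variance estimates come from them. The simulated test therefore does not vouch for the limma adjusted p given here. edgeR 4.0.16 and DESeq2 1.42.0 were run on the recovered reads as alternatives. Intervals and floors (3 reads per library) cover counting error only. Positions match GENCODE M21 (GRCm38) by identifier for all 76 members, 72 with the same start and end.

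The members and gene lists (14 pathway and 8 marker lists) were chosen with earlier results of these data known, and the groups by role were made after the values were seen. The rule named Pdpn, Id1, Tmeff1, Idi1 and Car2, then the 10 members that rose without overlap with the largest fold and the 10 with the highest mean, then up to 4 members of each list. It gave 25 members, and the others were named to account for the members. For 1 member the values, and the results that need it, are not reported here, while it stays in the counts. Listed genes that are no members were chosen after their values were seen. List results not given in the report follow. In the table were 2 of 34 cytokine receptors, 3 of 24 solute carriers, 1 of 29 axon and synapse genes, 2 of 27 Wnt and Notch genes and 1 of 24 NRF2 targets, all with lower means in Senp8+/- and with 1 past the threshold, Slc40a1.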

Additional observations from a re-analysis of the deposited data

How the results depend on the processing

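With limma 7 members passed the adjusted threshold. The number was 22 in the authors' deposited table and 15 with DESeq2 on the recovered reads, and 65 with libraries scaled to equal medians. It was 11 with the replicate number as a block, although same-numbered libraries did not deviate together (correlations over genes of 0.01, 0.04 and -0.24), so they share only a number. edgeR gave 7, pseudocounts of 0.5 and 5 gave 6, and a minimum mean of 10 gave 5. Leaving out 1 library gave 0 to 12, with 0 both without Senp8+/- replicate 2 and without wild-type replicate 1, 3 without Senp8+/- replicate 3 and 12 without wild-type replicate 3. The number of members without overlap was 67 and ran from 67 to 73 when 1 library was left out. The members' median log2 fold change of 1.36 became 1.09 with a pseudocount of 5 and ranged from 1.32 to 1.45 without 1 library. Equal medians gave 2.31 and moved the median of all listed genes by 0.96, and 0 members turned their sign. That scaling gives all libraries the same median over the listed genes, although 145 of these were higher and 569 lower. Before it the library medians were 16.1 to 18.5 in Senp8+/- and 32.2 to 35.8 in wild type. The scaling therefore raised all Senp8+/- values relative to wild type. Over 30 named members, 387 values under alternatives held 308 on the same side of the threshold, 24 weaker, 55 stronger and 0 reversed. The cause of the moves under the other settings was not tested. Of 67 members with over 3 wild-type reads, 13 changed their fold by over 1.5 times when 1 library was left out, as did 3 of the 5 with 1 to 3 reads (Add2, Fst and Ctgf), and 17 members had a mean under 10, where few reads limit the precision.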
